A study of Mus musculus with 26 samples.

Results

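A set of 8 genes linked to D2 dopamine receptor neurons of the striatum was followed here: the orphan receptors Gpr6, Gpr52, Gpr149 and Gpr155, and Ttc12, Upb1, Ptprm and Plk2. They were taken by symbol from a list of receptors and indirect-pathway markers, and all 8 were found in every table, out of 31977 genes that could be joined across libraries. Ribosome-bound RNA was collected from dorsal striatum of adult Drd2-EGFP/Rpl10a mice (line CP101), in which the Drd2 regulatory region of a transgene drives a tagged ribosomal protein. An antibody against the tag then pulls ribosomes, with their messages, out of a homogenate (TRAP, translating ribosome affinity purification). All mice carried the transgene and had been trained in long-access intravenous self-administration.

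The 23 immunopurified libraries fell into 5 groups. There were 2 from cocaine mice labelled escalating, 4 from cocaine mice labelled non-escalating and 3 from saline mice, all without withdrawal. Another 9 came from non-escalating cocaine mice after withdrawal and 5 from saline mice after withdrawal. Unpurified input RNA gave 3 libraries, 1 each of non-escalating, saline and saline withdrawal mice. The labels do not give the length of withdrawal or say whether a library is 1 animal, so p-values speak only of the spread from library to library. Library numbers in the titles form 2 sets. Set A holds every library without withdrawal, 4 of non-escalating withdrawal and 2 of saline withdrawal. The remaining 5 and 3 make up set B, together with the saline withdrawal input. Gene counts ran from 3279457 to 19122303 per immunopurified library. Reads that aligned once but fell outside genes made up 21.2% to 70.7% of each, and over 50% in 5 libraries, all after withdrawal. The library that stands furthest apart is saline withdrawal set A replicate 1, at 70.7%.

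Medium spiny neurons of the striatum come in several kinds. Direct-pathway cells carry the D1 receptor, which raises cyclic AMP, and indirect-pathway cells carry the D2 receptor, which lowers it. Several receptors with no settled ligand are found in the indirect-pathway cells, among them Gpr6 and Gpr52, which couple to stimulatory G proteins and raise cyclic AMP without added ligand. Ttc12 lies near Drd2 in the genome, with Ankk1 between them, and Ptprm, Plk2 and Upb1 encode enzymes with no shared pathway.

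Promoter sequences of 6 of the 8 genes were found in the RefSeq promoter table of GRCm38.p6, and Gpr52 and Gpr149 were not among them. The 250 bases before the start are shown for Gpr6 and Plk2, because these windows hold TGACGTCA, the palindromic cyclic AMP response element, in capitals. In the Plk2 window, capitals also mark CCGCCC, which is GGGCGG on the other strand.
Gpr6, chr10:41072291-41072540, minus strand: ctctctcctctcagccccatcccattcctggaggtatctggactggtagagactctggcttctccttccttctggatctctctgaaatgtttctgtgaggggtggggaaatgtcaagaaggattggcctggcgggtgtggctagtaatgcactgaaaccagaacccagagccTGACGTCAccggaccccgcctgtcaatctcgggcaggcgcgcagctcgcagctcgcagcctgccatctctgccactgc
Plk2, chr13:110394794-110395043, plus strand: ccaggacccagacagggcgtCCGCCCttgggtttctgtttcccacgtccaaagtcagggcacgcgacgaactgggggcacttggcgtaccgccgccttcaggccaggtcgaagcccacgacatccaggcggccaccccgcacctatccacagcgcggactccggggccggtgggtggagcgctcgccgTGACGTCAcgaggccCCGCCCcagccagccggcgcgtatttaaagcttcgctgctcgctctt
The palindrome started 78 bases before the Gpr6 start and 62 bases before the Plk2 start, and 1.55% of 32851 mouse promoter windows of the same length held it. The shorter letters TGACG, searched on both strands, were found in 17.8% of windows and lie within every TGACGTCA, where they match once per strand. Gpr155, Ttc12 and Ptprm held 1 such short match each and Upb1 held none. GGGCGG, found on either strand in 32.7% of windows, occurred 7 times at Gpr155, 2 times each at Ptprm and Plk2, once at Ttc12 and not at Gpr6 or Upb1. The windows of Gpr155, Ttc12 and Ptprm reach into the annotated span of their own gene, so a match there need not lie before it. TATAAA, present in 12.4% of windows, was in none of the 6. A match describes letters only, and these motifs were chosen after results of these data were known.

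Of the 8 genes, 3 were higher in immunopurified than in input RNA: Ttc12, Gpr6 and Ptprm. This comparison set the 12 immunopurified libraries of non-escalating, saline and saline withdrawal mice against the 3 inputs of those conditions. Levels are in CPM, gene counts divided by a scaled library size, and a gene was called where edgeR's quasi-likelihood test gave a Benjamini-Hochberg adjusted p under 0.05 over 15610 genes. Of all genes tested 7.38% were called, 3.58% as higher and 3.8% as lower. The median log2 fold change was 1.70 over the 8 genes and 0.16 over all genes tested, and 5 of the 8 against 26.3% of all genes had an unadjusted p under 0.05. As a check of the purification, Drd2 itself was higher by a log2 fold change of 2.79 and Drd1 changed by -3.25, and both were called.

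Gpr6 ranged from 12.1 to 199.9 CPM with a median of 76.6 CPM in the 12 immunopurified libraries. The inputs had 50.2 CPM in non-escalating mice, 23.4 CPM in saline mice and 12.7 CPM in saline withdrawal mice. The groups overlapped in 3 saline withdrawal libraries, and set A replicate 1 of that group was the only purified library under the input of its condition. Gpr6 was higher in immunopurified RNA by a log2 fold change of 1.91 ± 0.40 (SE), with an adjusted p of 0.0113 by edgeR's test. By condition, the mean purified level was 2.73 times the input in non-escalating, 4.47 times in saline and 3.70 times in saline withdrawal mice. The call was lost without the saline input (log2 fold change 1.80, adjusted p = 0.0584), without the saline withdrawal input (1.76, 0.0607) and in set A alone (1.78, 0.1004). Gpr6 (chromosome 10, 41069977 to 41072290 in RefSeq coordinates of GRCm38) lies 115.9 kb from Fig4, its nearest named neighbour.

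Gpr52, which is encoded within the span of the larger gene Rabgap1l on chromosome 1, was not called. It ranged from 13.6 to 112 CPM with a median of 58.2 CPM in immunopurified libraries. The inputs had 55.1 CPM in non-escalating mice, 41.8 CPM in saline mice and 35.2 CPM in saline withdrawal mice, inside the range of the purified libraries. The log2 fold change was 0.64 ± 0.35 (SE), with a 95% interval of -0.09 to 1.38 and an adjusted p of 0.252 by edgeR. Rabgap1l, which surrounds it and regulates membrane traffic, had a log2 fold change of -0.04, and whether reads were counted by strand is not known.

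Gpr149, an orphan receptor whose loss raises fertility in mice, was scarce. It ranged from 1.56 to 23.5 CPM with a median of 13.1 CPM in purified libraries. The inputs had 6.49 CPM in non-escalating mice, 3.71 CPM in saline mice and 2.73 CPM in saline withdrawal mice, or 73, 24 and 12 counts. Purified levels stood above the input of their condition in 3 of 4 non-escalating, 3 of 3 saline and 4 of 5 saline withdrawal libraries. The log2 fold change of 1.73 ± 0.65 (SE) missed the threshold, with an adjusted p of 0.11 by edgeR. It was called by DESeq2 (log2 fold change 1.72, adjusted p = 0.0221) and with the share of reads outside genes as a covariate (1.98, 0.0356).

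Gpr155, a lysosomal membrane protein that joins a transporter-like part to a receptor-like part and senses cholesterol, was not called. It ranged from 50.8 to 222 CPM with a median of 121 CPM in purified libraries. The inputs fell inside that range, with 74.2 CPM in non-escalating mice, 182 CPM in saline mice and 194 CPM in saline withdrawal mice. All 4 non-escalating purified libraries stood above the input of their condition, and 0 of 3 saline and 1 of 5 saline withdrawal libraries did. Its log2 fold change was -0.03 ± 0.30 (SE), with a 95% interval of -0.67 to 0.62 and an adjusted p of 0.97 by edgeR.

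Ptprm, a receptor tyrosine phosphatase that binds its own kind on neighbouring cells, was the only 1 of the 8 with no overlap between the groups, as in 5.48% of all genes, and in 1.97% with every purified library higher. It ranged from 154 to 682 CPM with a median of 216 CPM in purified libraries. The inputs had 65.4 CPM in non-escalating mice, 35.0 CPM in saline mice and 119.6 CPM in saline withdrawal mice. Ptprm was higher by a log2 fold change of 1.67 ± 0.36 (SE), with an adjusted p of 0.0129 by edgeR. The call was lost without the saline input (1.27, adjusted p = 0.0715) and without the non-escalating input (1.60, 0.0901). Markers of blood vessel cells moved with it: their summed level was 292 to 9826 CPM with a median of 2251 CPM in the 12 purified libraries and 132 to 687 CPM in the inputs, and 4 of 12 were called higher and none lower. Of all 23 purified libraries, the one with the most Ptprm, saline withdrawal set A replicate 1, also held the highest sum of those markers, and non-escalating withdrawal set B replicate 5 held the lowest of both. The part of those cells in the Ptprm result was not tested.

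Plk2, a polo-like kinase that neurons make when they are active, was abundant and was not called. It ranged from 134 to 488 CPM with a median of 354 CPM in purified libraries. The inputs were close together, at 276 CPM in non-escalating mice, 266 CPM in saline mice and 296 CPM in saline withdrawal mice. Plk2 had a log2 fold change of 0.42 ± 0.23 (SE), with an adjusted p of 0.26 by edgeR, and it was called only with the share of reads outside genes as a covariate (0.59, adjusted p = 0.038).

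Upb1, which makes beta-alanine in the last step of pyrimidine breakdown, was the scarcest of the 8. It ranged from 1.14 to 8.66 CPM with a median of 3.49 CPM in purified libraries. The inputs held 3 counts in non-escalating, 11 counts in saline and 0 counts in saline withdrawal mice, and 0 counts allow up to 0.598 CPM, counting error only. The log2 fold change was 2.75 ± 1.15 (SE) with a 95% interval of 0.32 to 5.18, and an adjusted p of 0.145 by edgeR. DESeq2 called it (2.75, adjusted p = 0.0175). Its neighbour Adora2a, an adenosine receptor of indirect-pathway neurons, lies 72.1 kb away on chromosome 10 and was called higher. Gucd1 lies nearer, 65.1 kb away on the other side of Upb1. The median of Gucd1 was 9.73 CPM in purified libraries, and the inputs had 0 to 10.2 CPM. For Specc1l, 94.5 kb away, the median was 112 CPM in purified libraries, and the inputs had 54.3 to 173 CPM.

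Ttc12, a protein needed to assemble the motors of cilia, was called in each setting but the replicate block (adjusted p = 0.0779), and had the lowest adjusted p of the 8. It ranged from 94.4 to 646 CPM with a median of 341 CPM in purified libraries. The inputs had 109.1 CPM in non-escalating mice, 72.1 CPM in saline mice and 77.3 CPM in saline withdrawal mice. Every purified library stood above the input of its condition, and only saline withdrawal set A replicate 1 stood under any input. Ttc12 was higher by a log2 fold change of 2.18 ± 0.36 (SE), a 4.52-fold difference, with an adjusted p of 0.00221 by edgeR. On chromosome 9 its span (49436961 to 49486275) lies 28.8 kb from Drd2, 9.92 kb from the kinase gene Ankk1 and 15.9 kb from the adhesion gene Ncam1. Ankk1 had a log2 fold change of 1.21 (adjusted p = 0.0582 by edgeR) and Ncam1 of -0.35 (adjusted p = 0.335), so of these neighbours Drd2 alone was called.

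**Figure D1:**
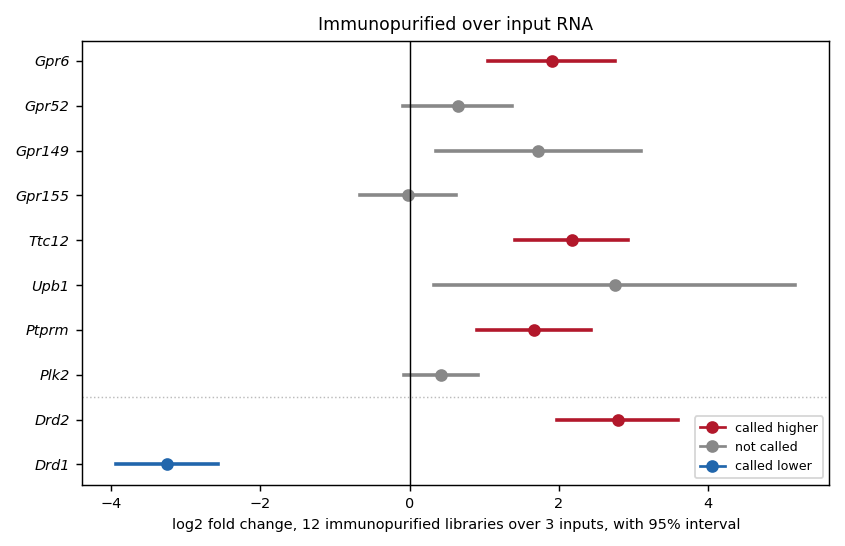
Log2 fold change of immunopurified over input RNA with its 95% interval for the 8 genes, and below the dotted line for Drd2 and Drd1. Red points were called higher, blue lower and grey not called; Ttc12 at 2.18, Gpr6 at 1.91 and Ptprm at 1.67 were the 3 of the 8 that were called.

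Levels between genes can be compared only per length. Per kb of exon in GENCODE M21, over the 23 immunopurified libraries, Ttc12 averaged 82.3 ± 31.9 CPM and Plk2 81.8 ± 24.1 CPM (SD, n = 23 each). The spreads of those 2 overlapped. All genes here share the same libraries, and differences between genes within a library were not tested. Gpr6 followed at 55.0 ± 33.6 CPM per kb, Ptprm at 28.9 ± 14.3 and Gpr155 at 21.1 ± 7.47, each overlapping its neighbour in this order. Gpr149 at 3.01 ± 1.48 and Upb1 at 0.636 ± 0.478 CPM per kb were lowest. Drd2 stood at 1382 ± 819 CPM per kb. In the inputs Plk2 was at 62.2 ± 3.36 CPM per kb (SD, n = 3), above Gpr155 at 22.4 ± 9.86, Ttc12 at 19.0 ± 4.41 and Gpr6 at 16.1 ± 10.8 CPM per kb. Gpr52 has no exon length in that annotation and is left out of this order.

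The same comparison was read in lists of related genes and of other cells. Of 11 other indirect-pathway markers 8 were called higher in purified RNA, with a median log2 fold change of 1.60, led by Drd2, Six3, Penk and Grik3. Of 10 direct-pathway markers tested 7 were called lower and none higher, with a median of -2.20, led by Drd1 and Tac1. Of 33 other orphan receptors of the brain 2 were called lower (Gpr37 and Gpr37l1, found mainly in glia) and 0 were higher. The list of relatives of the members, such as other polo-like kinases and receptor phosphatases, also held Drd2, Ankk1 and Ncam1, which are neighbours of Ttc12. It had 1 of 14 called, and that was Drd2, which is also among the indirect-pathway markers. Of 15 partners of cyclic AMP signalling 2 were called lower (Gnas, the stimulatory G protein, and Prkar1b, a regulator of protein kinase A) and 0 higher. Markers of other cells were called lower in 7 of 12 for astrocytes, 10 of 11 for oligodendrocytes, 1 of 7 for microglia, 1 of 7 for cholinergic and 4 of 7 for GABAergic interneurons, and none of these was called higher. Markers of blood vessel cells went the other way, with 12 of 12 positive, 4 called higher and a median of 3.09.

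**Figure D2:**
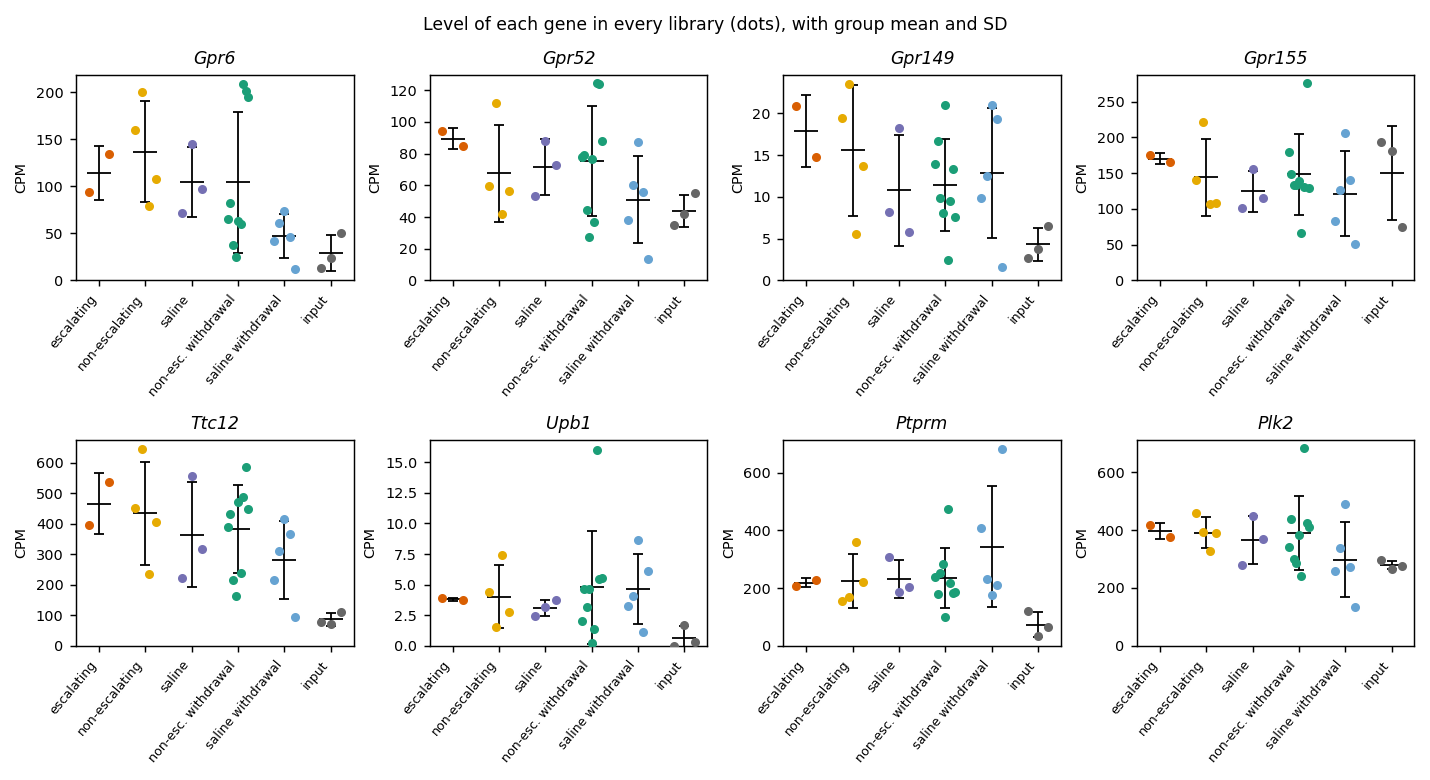
CPM of each gene in every library (dots), with the mean and SD of each group as a line and bars; the y axis starts at 0 and differs between panels, and the groups run from escalating to input. Ptprm stands above all inputs in the 12 purified libraries compared with them, while all the other genes overlap the inputs.

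Cocaine and withdrawal gave no called difference in any of the 8 genes. All 23 immunopurified libraries were fitted together, with library set as a term. There, 0 of 8 were called in each of 6 comparisons and in the interaction of cocaine with withdrawal, and none had an unadjusted p under 0.05. edgeR called 0.0% of the 16908 genes in all 7, and DESeq2 and limma voom called 0 of the 8 genes as well. The share of all genes with an unadjusted p under 0.05 was 3.06% in escalating against saline mice, 2.11% in non-escalating against saline mice and 3.3% in escalating against non-escalating mice. After withdrawal it was 5.21% in non-escalating against saline mice. For withdrawal against none it was 4.51% in non-escalating and 5.23% in saline mice, and it was 2.03% for the interaction. DESeq2 called 1 to 12 genes of the whole table in these comparisons, none of them among the 8.

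Before withdrawal, escalating mice can be compared with saline mice only through 2 against 3 libraries. Gpr155 alone did not overlap: it had 176 and 165 CPM in escalating mice, against 102, 116 and 156 CPM in saline mice. Of all genes 8.07% had both escalating libraries above all 3 saline libraries, and 15.2% did not overlap in either direction. Its log2 fold change was 0.45 ± 0.47 (SE), with an adjusted p of 1 by edgeR. Gpr6 had 93.6 and 134 CPM in escalating mice and 71.1, 97.4 and 145 CPM in saline mice, a log2 fold change of 0.12 ± 0.70 (SE). Plk2 averaged 397 ± 27.9 CPM in escalating mice (SD, n = 2) and 366 ± 84.3 CPM in saline mice (SD, n = 3), a log2 fold change of 0.12. The 95% interval for Plk2, -0.75 to 0.98, was the narrowest of the 8 in this comparison. The size of difference that 2 against 3 libraries could detect was not computed.

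Non-escalating mice did not differ from saline mice beyond the spread in any of the 8 genes. Gpr6 averaged 137 ± 53.7 CPM in non-escalating mice (SD, n = 4) and 105 ± 37.5 CPM in saline mice (SD, n = 3). Ttc12 averaged 434 ± 170 CPM in non-escalating and 364 ± 173 CPM in saline mice. All 8 genes overlapped between these groups, as did all but 3.19% of genes, and the log2 fold changes ran from -0.08 for Gpr52 to 0.53 for Gpr149. Escalating against non-escalating mice gave -0.27 for Gpr6 and 0.41 for Gpr52 at the ends, with overlap in all 8 and none in 8.46% of all genes.

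After withdrawal, the 9 non-escalating libraries had higher mean levels than the 5 saline libraries for Gpr6, Gpr52, Gpr155, Ttc12 and Plk2, and none of these differences was called. Gpr6 ranged from 25.1 to 209 CPM with a median of 65.0 CPM in non-escalating withdrawal mice. In saline withdrawal mice it had 12.1, 41.9, 46.6, 61.2 and 73.9 CPM. All 8 genes overlapped between these groups, while 0.0414% of all genes did not. For Gpr6 the log2 fold change was 0.79 ± 0.49 (SE), with an adjusted p of 0.749 by edgeR. It was 0.58 for Gpr52, 0.49 for Ttc12, 0.41 for Plk2, 0.38 for Gpr155 and 0.01 for Gpr149, and -0.44 for Ptprm and -0.16 for Upb1. For Upb1 and Gpr149 the mean CPM went the other way. Upb1 had 4.79 ± 4.62 CPM in non-escalating withdrawal mice (SD, n = 9) and 4.65 ± 2.87 CPM in saline withdrawal mice (SD, n = 5). Gpr149 had 11.4 ± 5.50 and 12.9 ± 7.83 CPM in the same order. No gene of the other lists was called here. Other indirect-pathway markers were positive in 11 of 11 (median log2 fold change 0.63), partners of cyclic AMP signalling in 15 of 15 (0.61) and markers of blood vessel cells in 0 of 12 (-1.03), against a median of 0.01 over all genes. The summed vessel markers were 108.3 to 6366 CPM (median 1061) in non-escalating withdrawal mice and 1513 to 9826 CPM (median 2950) in saline withdrawal mice, and their part in the values of the 8 genes was not tested. The values of the 8 genes differed between the library sets fitted alone, and that difference was not tested. In set A alone Gpr6 stood at 2.63, Gpr52 at 1.86, Ttc12 at 1.5 and Ptprm at -1.04, and in set B alone at -0.17, -0.16, -0.14 and 0.07 in that order. Set A held only 2 saline withdrawal libraries, with 70.7% and 52.7% of reads outside genes. The second of these has the annotation and the lower depth of set B, and with it as a set of its own Gpr6 stood at 0.51, Gpr52 at 0.43, Ttc12 at 0.39 and Ptprm at -0.45. Without the 5 libraries over 50% outside genes, a limit chosen after the data were seen, Gpr6 stood at 0.17, Gpr52 at 0.16, Ttc12 at 0.21 and Ptprm at -0.29.

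**Figure D3:**
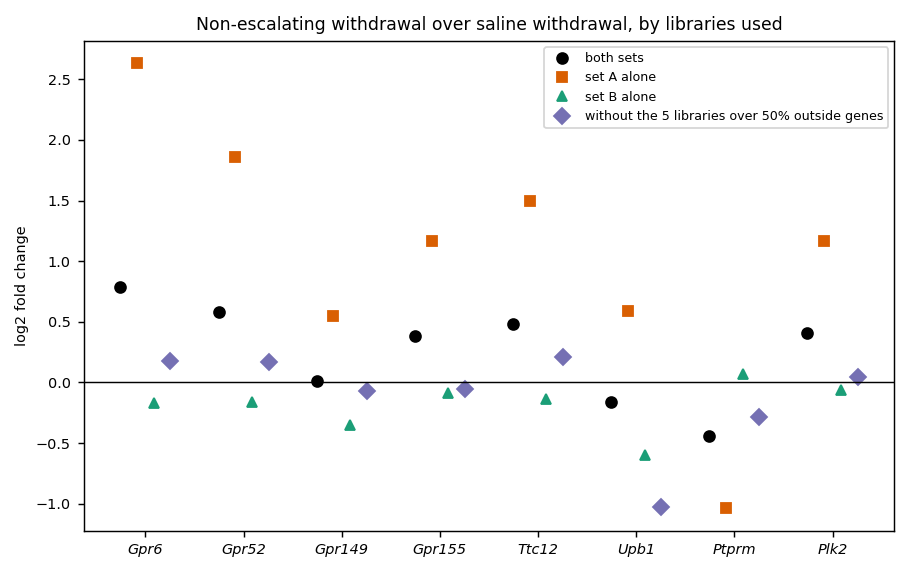
Log2 fold change of non-escalating withdrawal over saline withdrawal for each gene, with all libraries, set A alone, set B alone, and without the 5 libraries over 50% of reads outside genes. Gpr6 stands at 2.63 in set A and -0.17 in set B; none of these values was called.

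The comparisons of withdrawal against none held the 2 values nearest to the unadjusted threshold. Every library without withdrawal was of set A, so the set term was estimated from withdrawal libraries alone. In saline withdrawal mice Ptprm had 410 and 682 CPM in set A and 177, 212 and 233 CPM in set B. Saline mice, all of set A, had 186, 203 and 307 CPM. All 8 genes overlapped here, and 6.65% of all genes did not. Its log2 fold change was 0.87 ± 0.42 (SE), with an adjusted p of 0.782 by edgeR, and 0.08 without the libraries over 50% outside genes. Markers of blood vessel cells were positive here in 12 of 12 (median log2 fold change 1.48, none called), against a median of 0.08 over all genes. Their sum was 1513 to 9826 CPM in saline withdrawal mice and 292 to 4063 CPM in saline mice, and their part in the Ptprm value was not tested. Gpr149 ranged from 2.41 to 21.0 CPM with a median of 9.89 CPM in non-escalating withdrawal mice. The libraries of set A there had 2.41, 7.58, 9.54 and 13.3 CPM, and those of set B 8.11 to 21.0 CPM. Non-escalating mice without withdrawal, all of set A, had 5.56, 13.7, 19.4 and 23.5 CPM of Gpr149. Again all 8 genes overlapped, and 0.0946% of all genes did not. The Gpr149 log2 fold change was -1.08 ± 0.53 (SE), with an adjusted p of 0.926 by edgeR, and -0.61 without those libraries. The interaction of cocaine and withdrawal ran from -0.53 for Upb1 to 0.66 for Gpr52, each with an adjusted p of 1.

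**Figure D4:**
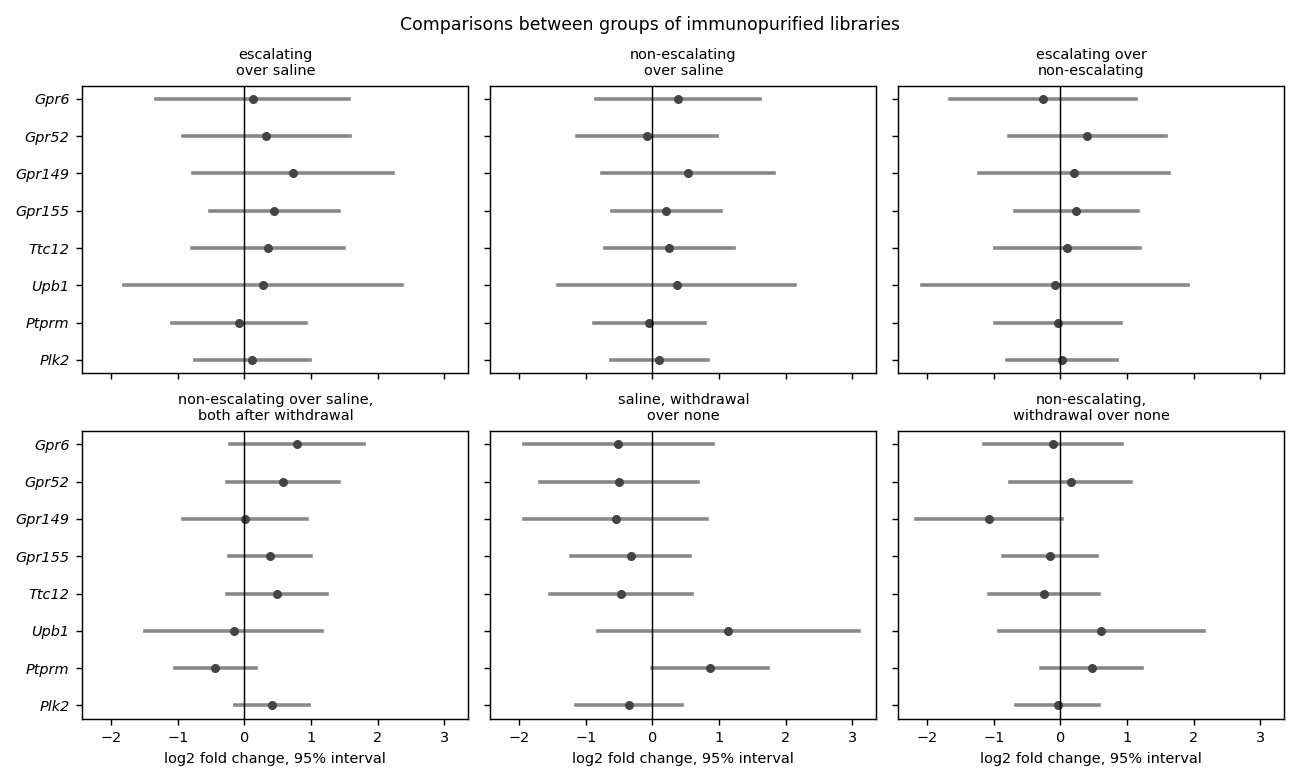
Log2 fold change with its 95% interval for the 8 genes in 6 comparisons between groups of immunopurified libraries, all on the same axis. All intervals include 0, and those of Ptprm in saline withdrawal over saline and of Gpr149 in non-escalating withdrawal over non-escalating end closest to it.

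Levels of 7 of the 8 genes went with the share of reads outside genes, as did those of many other genes. With a limit on r chosen after the data were seen, 6 of the 8 had r at or below -0.5 and 1 had r at or above 0.5, where 21.8% and 27.8% of all 16908 genes did. Over the 23 immunopurified libraries, Pearson's r of log2 CPM with that share was -0.93 for Ttc12 (Spearman's rho -0.91), -0.89 for Gpr52 (-0.85), -0.87 for Plk2 (-0.91) and -0.87 for Gpr6 (-0.84). It was -0.78 for Gpr149 (-0.64), -0.76 for Gpr155 (-0.67), 0.85 for Ptprm (0.88) and -0.05 for Upb1 (-0.16). The largest permutation p of r was 0.807 for Upb1, and the others, adjusted over the 8 relations, were at most 3.43e-05 by 100000 resamples. With the 2 libraries of most extreme share left out, r stood at -0.91 for Ttc12, -0.84 for Gpr6, -0.83 for Gpr52, -0.78 for Plk2, 0.72 for Ptprm, -0.58 for Gpr149 and -0.57 for Gpr155. Within set B of 8 libraries, r was -0.94 for Gpr6, -0.90 for Gpr52, -0.88 for Ttc12, -0.84 for Plk2, -0.78 for Gpr149 and 0.72 for Ptprm, with exact permutation p from 0.000397 to 0.0318. For Gpr155 in set B it was -0.38, with an exact permutation p of 0.365. Within set A of 15 libraries all 7 kept their sign, from 0.96 for Ptprm to -0.94 for Ttc12. The mean share outside genes was 40.7% ± 13.2 in non-escalating withdrawal mice (SD, n = 9) and 47.5% ± 15.3 in saline withdrawal mice (SD, n = 5), with an exact two-sided permutation p of 0.396. In each of the other 5 pairs of groups that p was at least 0.263. The part of this share in the levels was not tested.

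**Figure D5:**
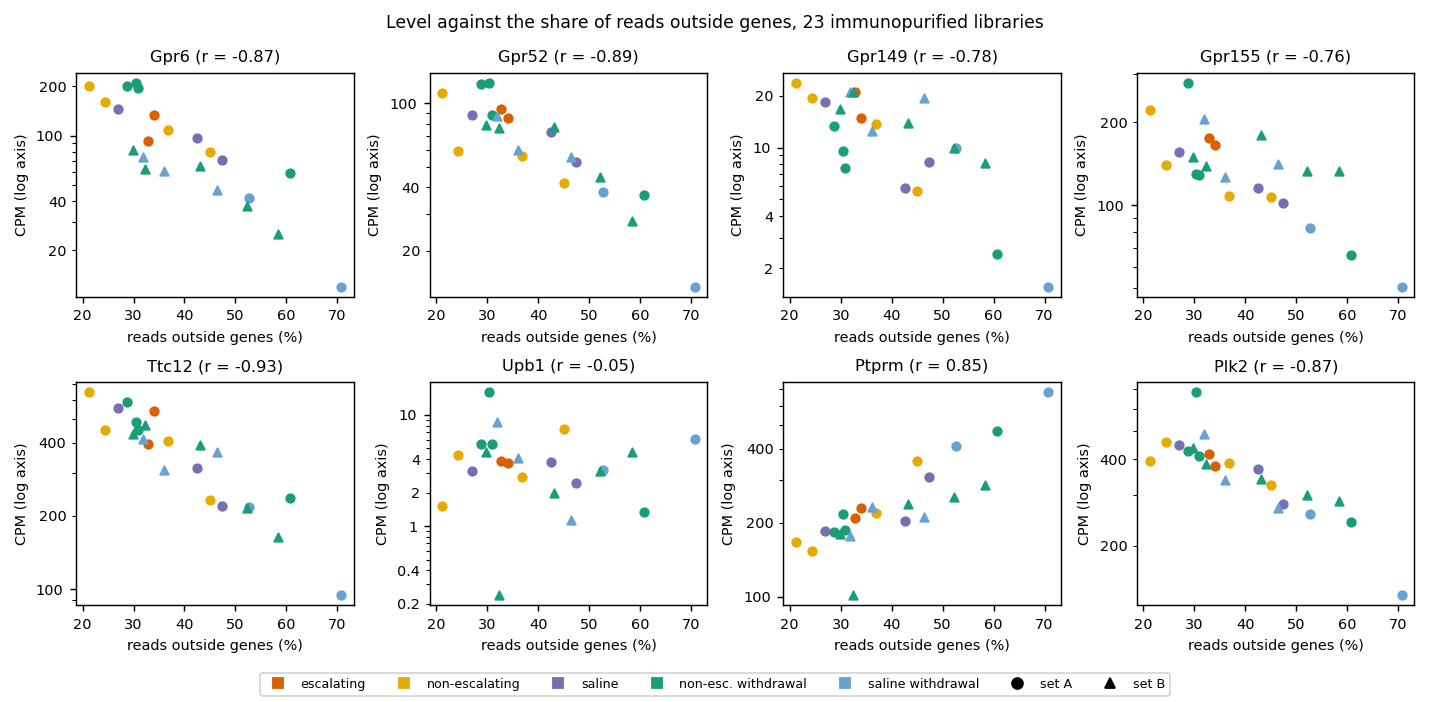
CPM (log axis) of each gene against the percentage of uniquely aligned reads outside genes, 1 point per immunopurified library, circles for set A and triangles for set B, with Pearson's r on log2 CPM in each title. Ttc12 falls and Ptprm rises along the axis, and Upb1 shows no slope.

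The 8 genes were compared with all 10376 genes of at least 5 CPM for likeness of pattern, after group and set effects were subtracted from log2 CPM. These r values run over the same 23 libraries, share depth and the share of reads outside genes, and are given as a description. Gpr6 was most like Phactr1 (0.98), Pde1b and Itm2c, and Gpr52 most like Arel1 (0.97), Phactr1 and Itm2c. Gpr149 was nearest to Slc35f1 (0.95), Pbx3 and Hs6st2, and Gpr155 to Elmo1 (0.90), Zfp706 and Mme. The genes closest to Ttc12 were Atp6v0d1 (0.97), Maneal and Tln2, and those closest to Plk2 were Fam49a (0.95), Rap1gap and Drp2. Ptprm went with Leng8 (0.96), Terf1 and Sema6d, and Upb1 with Mycn (0.90), Srfbp1 and Glcci1. Among the members, Gpr6 and Gpr52 had r = 0.96, Gpr6 and Ttc12 0.94, and Ptprm had -0.82 with Gpr6 and -0.87 with Ttc12.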

How the data were processed

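Each deposited table holds raw, whole-number counts of reads per gene symbol for 1 library. The submitters' processing notes name STAR 2.0.0e, HTSeq and mm10. The annotation release, strand setting and filters were not found among the labels. The tables follow 2 annotations (32531 genes in 10 libraries, 32657 in 16), joined on 31735 shared symbols and 242 pairs of old and current symbols, covering 99.5% to 99.9% of all gene counts in every library. The closing HTSeq entries that name no gene were left out of library sizes and used only for shares: uniquely aligned reads assigned to no feature are called reads outside genes here and made up 21.2% to 70.7% of a library. No 2 libraries of a group were identical in 56 pairs, with a chi-square per degree of freedom of 11.8 to 265.

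Tests on the counts used edgeR 4.0.16 under R 4.3.3 (quasi-likelihood F test after filterByExpr and TMM scaling, Benjamini-Hochberg adjustment over all genes tested, called under 0.05). One fit took the 23 immunopurified libraries with terms for group and library set (16908 genes, 17 residual degrees of freedom). The other took 12 immunopurified and 3 input libraries with terms for condition and set (15610 genes, 10 residual degrees of freedom). Its low-count filter grouped libraries as immunopurified or input, where the plan grouped them by group; this was settled from gene totals, before any test of it had been read. The titles call every other set A library a copy of a lower library number, without saying what a copy is. Saline withdrawal set A replicate 2 carries no such mark; it was placed in set A by its own number, but shares with set B the annotation of 32531 genes and, at 3279457 counts, the lower depth. CPM used TMM-scaled library sizes, and log2 CPM a prior count of 2. Correlations used 100000 resamples, or exact enumeration below 10 libraries, in Python 3.11.15 with scipy 1.17.1. The fits were tested on counts simulated with the same dispersion for every gene and no set effects. That test does not cover the spread of these libraries.

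The 8 genes, the gene lists and the tests were chosen with earlier results of these data known. All 8 genes are described; of the lists, counts, medians and up to 4 called genes by lowest p are given; for likeness, the 3 genes of highest r among those of at least 5 CPM with an ordinary symbol. The neighbouring genes, promoter motifs and correlations between the 8 genes were added after the data were seen. Alternatives were DESeq2 1.42.0, RLE factors, no filter, limma 3.58.1 voom with library weights, a replicate block, saline withdrawal set A replicate 2 as a set of its own, the share of reads outside genes as a covariate, each library set alone, all 23 immunopurified libraries against the inputs, each library left out, and the 5 libraries over 50% outside genes left out. Among immunopurified libraries of the same set but different groups, 25 same-number pairs had a median residual correlation of -0.18, with 9 over 0.1. The 78 pairs of other numbers had a median of -0.07, with 34 over 0.1. This cannot exclude that a replicate number pairs libraries, because the share of reads outside genes was not taken out of these residuals. The labels do not say what a replicate number shares, and the tests carry no block. Pairing of an input with a purified library was not checked.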

Additional observations from a re-analysis of the deposited data

Results flagged for a closer look

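Each of the 8 genes was checked in each group of 4 to 10 libraries, 24 checks in all, and in 3 of them 1 library stood far from the others. Chance would mark about 1 in 20 independent checks. These genes share their libraries and many move together, so the 3 cannot be set against that rate. All 3 lay in non-escalating withdrawal mice of set A. Upb1 reached 16.03 CPM in replicate 2, with the next library at 5.53 CPM. In the same library Plk2 was at 684 CPM, with the next at 437 CPM. Ptprm was at 476 CPM in replicate 1, with the next at 284 CPM, and 60.7% of the reads of that library lay outside genes.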

How the results depend on the processing

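For purified against input RNA, 3 of the 8 genes were called in the reported fit and with RLE factors, no filter, limma voom, saline withdrawal set A replicate 2 as its own set, all 23 purified libraries or without the libraries over 50% outside genes. DESeq2 called 5 and the covariate fit called 5. In set A alone 2 were called, and leaving out each library in turn gave 1 to 3. The replicate block called 0 of the 8 and 46 genes in all (Gpr6 at 1.72, Ttc12 at 1.88 and Ptprm at 1.86 on the log2 scale). Whether an input pairs with a purified library of the same number was not tested. The genes called in all numbered 1152 in the reported fit, 2906 with DESeq2, 1796 with the covariate, 242 in set A alone, and 241 to 1546 with 1 library left out. Among the fits with 1 library left out, the count moved by over 1.5 times only without an input: 241 without the non-escalating, 614 without the saline and 565 without the saline withdrawal input. The cause of these changes was not tested.

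In the comparisons between groups, 0 of the 8 genes were called in any setting run, and 120 of 1800 values changed sign. Purified against input RNA, the sign changed only for Gpr155. The log2 fold changes with the other sign, all uncalled, were these. With DESeq2 the other sign was found in Plk2 at -0.010 for escalating against non-escalating mice, and in Gpr149 at -0.066 for non-escalating against saline mice after withdrawal. With RLE factors the other sign was found in Plk2 at -0.010 for escalating against non-escalating mice, and in Gpr149 at -0.072 for non-escalating against saline mice after withdrawal. With limma voom the other sign was found in Gpr6 at 0.024 and Upb1 at 0.18 for escalating against non-escalating mice, and in Gpr155 at -0.028 and Ptprm at 0.034 for non-escalating against saline mice. That setting also put Gpr52 at -0.19 and Upb1 at -0.21 for withdrawal against none in non-escalating mice, and Gpr149 at -0.17 for non-escalating against saline mice after withdrawal. Under the replicate block the other sign was found in Upb1 at 0.045 for escalating against non-escalating mice, and in Ptprm at 0.055 for non-escalating against saline mice. That setting also put Upb1 at 0.054 for non-escalating against saline mice after withdrawal. With the share of reads outside genes as a covariate the other sign was found in Gpr6 at -0.18, Ptprm at 0.15 and Plk2 at -0.039 for escalating against saline mice, and in Gpr155 at 0.24 for purified against input RNA. That setting also put Gpr6 at -0.11, Gpr155 at -0.053, Ttc12 at -0.074, Ptprm at 0.18 and Plk2 at -0.10 for non-escalating against saline mice, and Gpr6 at 0.42, Gpr155 at 0.16, Ttc12 at 0.25, Ptprm at -0.031 and Plk2 at 0.24 for withdrawal against none in non-escalating mice. That setting also put Gpr149 at -0.40 for non-escalating against saline mice after withdrawal, and Ttc12 at 0.023 for withdrawal against none in saline mice. In set A alone the other sign was found in Gpr155 at 0.15 for purified against input RNA, and in Gpr149 at 0.015 and Upb1 at 0.23 for the interaction. That setting also put Gpr6 at 0.28, Gpr155 at 0.061, Ttc12 at 0.019 and Plk2 at 0.17 for withdrawal against none in non-escalating mice, and Upb1 at 0.59 for non-escalating against saline mice after withdrawal. In set B alone the other sign was found in Gpr6 at -0.17, Gpr52 at -0.16, Gpr149 at -0.35, Gpr155 at -0.091, Ttc12 at -0.14, Ptprm at 0.067 and Plk2 at -0.061 for non-escalating against saline mice after withdrawal. Without the 5 libraries over 50% outside genes the other sign was found in Gpr6 at -0.22, Gpr155 at -0.26, Ttc12 at -0.039 and Plk2 at -0.052 for the interaction, and in Gpr6 at 0.58, Gpr155 at 0.33, Ttc12 at 0.24, Ptprm at -0.15 and Plk2 at 0.40 for withdrawal against none in non-escalating mice. That setting also put Gpr149 at -0.074 and Gpr155 at -0.052 for non-escalating against saline mice after withdrawal, and Gpr6 at 0.79, Gpr52 at 0.51, Gpr149 at 0.0033, Gpr155 at 0.59, Ttc12 at 0.28 and Plk2 at 0.45 for withdrawal against none in saline mice. With 1 library left out in turn, values of both signs were found. For escalating against non-escalating mice the range was -0.082 to 0.47 for Gpr149, -0.14 to 0.36 for Ttc12, -0.35 to 0.39 for Upb1, -0.17 to 0.28 for Ptprm, -0.060 to 0.11 for Plk2. For escalating against saline mice the range was -0.16 to 0.43 for Gpr6, -0.23 to 0.17 for Ptprm, -0.044 to 0.28 for Plk2. For purified against input RNA the range was -0.42 to 0.29 for Gpr155. For the interaction the range was -0.84 to 0.0035 for Upb1, -0.059 to 0.46 for Gpr155, -0.20 to 0.49 for Ttc12, -0.061 to 0.66 for Gpr6. For non-escalating against saline mice the range was -0.0054 to 0.67 for Ttc12, -0.36 to 0.21 for Ptprm, -0.062 to 0.25 for Plk2, -0.44 to 0.091 for Gpr52, -0.074 to 0.38 for Gpr155, -0.11 to 0.64 for Upb1. For withdrawal against none in non-escalating mice the range was -0.33 to 0.071 for Plk2, -0.33 to 0.13 for Gpr6, -0.59 to 0.13 for Gpr155, -0.45 to 0.010 for Ttc12, -0.067 to 0.51 for Gpr52, -0.066 to 1.08 for Upb1. For non-escalating against saline mice after withdrawal the range was -0.32 to 0.22 for Gpr149, -0.47 to 0.37 for Upb1. For withdrawal against none in saline mice the range was -0.85 to 0.051 for Gpr149, -0.74 to 0.13 for Gpr6, -0.71 to 0.017 for Gpr52, -0.58 to 0.0056 for Gpr155, -0.53 to 0.0033 for Plk2. The cause of these changes was not tested.

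The inputs number 3, 1 per condition, so each call against input rests on a spread shared with the purified libraries. Of uniquely aligned reads, HTSeq left 8.62% in the saline, 8.74% in the non-escalating and 12.8% in the saline withdrawal input as ambiguous between genes. In immunopurified libraries that share was 0.942% to 2.85%, without overlap. Its part in the fold changes against input was not tested. Upb1 and Gpr149 had 0 to 73 counts in the inputs, and a difference there is limited by counting error. In set A, saline withdrawal gave 2 libraries, at 52.7% and 70.7% of reads outside genes, and non-escalating withdrawal 4, at 28.7% to 60.7%. Escalating mice gave 2 libraries.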
